A study of Mus musculus with 12 samples.

Results

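Chromatin remodellers and bromodomain proteins are described here in dopaminergic neurons of the mouse midbrain, from 2 regions named SNpc (substantia nigra pars compacta) and VTA (ventral tegmental area). The members are the genes whose symbol in the deposited table starts with Smarc, Arid, Ino80, Baz or Brd, or with Chd and a digit. The rule found 51 of the 23079 genes in the table, and it used names only, no measured value. The mice were of the strain C57BL/6, with no treatment in the labels. RNA was obtained by TRAP, read here as translating ribosome affinity purification, a pull-down of tagged ribosomes with their RNA. Both groups carry whatever allele tags the ribosomes, while that allele, its promoter, the age of the mice and any pooling were not stated in the labels used here. Each region has 6 columns of counts, of which 5 are separate libraries. SNpc columns 4 and 5 are identical, as are VTA columns 2 and 3, and each such pair was counted as 1 library.

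DNA in the nucleus is wound around histones, and remodellers are enzymes of the SNF2 family that spend ATP to slide, evict or exchange nucleosomes. They work in large complexes, called BAF, ISWI, CHD and INO80 after their ATPases or founding members, and each complex adds subunits that bind DNA or read histone marks. A bromodomain binds acetylated lysine on histones, an ARID domain binds DNA, and neurons are known to exchange some BAF subunits for close relatives as they leave the cell cycle.

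Total counts were 62356964 to 81393907 per library, and 15685 genes had enough counts to be tested. The 8 markers of dopaminergic neurons, Th and Slc6a3 among them, summed to 9603 to 13957 CPM (a gene's count scaled by the size of its library) in the SNpc libraries and 4899 to 8035 CPM in the VTA libraries, and 7 of the 8 were called higher in SNpc. Summed astrocyte markers ran from 259 to 423 CPM in SNpc and from 432 to 583 CPM in VTA, with 2 of 8 called higher in VTA. Most of that sum was Slc1a2, at 234 to 363 CPM in SNpc and 394 to 514 CPM in VTA, and Gfap alone leaned to SNpc, without a call. Microglial markers summed to 14.5 to 37.6 CPM in SNpc and 36 to 53.1 CPM in VTA (2 of 7 called higher in VTA), those of oligodendrocyte precursors to 16.4 to 60.6 against 39.7 to 63.6 CPM (2 of 5), and those of glutamatergic neurons to 18.6 to 87.7 against 93.1 to 131 CPM (2 of 3). The microglial sum was mostly P2ry12 (12.3 to 27.1 against 30.9 to 44.5 CPM), while Aif1 and Cx3cr1 leaned to SNpc without a call. GABAergic markers summed to 294 to 518 against 306 to 399 CPM, with 1 of 4 called higher in SNpc. Serotonergic and cholinergic markers summed to 6.18 to 11.3 against 4.93 to 34.3 CPM, with 1 of 5 called higher in SNpc. SNpc library 4 stood apart with the highest sum of oligodendrocyte markers, 1369 CPM in an SNpc range that began at 272 CPM, against 683 to 859 CPM in VTA. VTA library 1 had the highest sum of vascular markers, 93.0 CPM in a VTA range that began at 7.40 CPM, against 2.59 to 10.9 CPM in SNpc, and 2 of the 6 vascular markers tested were called higher in VTA. No marker list had a gene at 0 in every library, and the part of these markers in the results was not tested beyond the fit that holds them as a covariate. In such bulk samples, fewer cells of a type and less RNA per cell cannot be told apart, and the labels do not tie the libraries to different mice, so that a p-value here speaks of the spread among libraries, part of which may be technical.

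All 51 members had at least 1 count, and 50 passed the filter on low counts. Arid3c did not pass, with 0 counts in 3 of the SNpc libraries and 2 of the VTA libraries and at most 0.114 CPM in any of the 10. Of the 50 tested, 23 were higher in VTA and 8 higher in SNpc by edgeR's quasi-likelihood test with Benjamini-Hochberg adjustment over all genes tested, called at an adjusted p under 0.05, and 19 were not called. Among all genes tested, 38.2% were called, 20.4% higher in VTA and 17.8% higher in SNpc. Log2 fold changes are given as SNpc minus VTA, so that negative values mean a higher level in VTA, and coordinates are those of GENCODE on mm10. The members' median log2 fold change was -0.28, and that of all genes tested was -0.04. The largest differences all lay on the VTA side, where 11 called members differed by at least 2-fold (10.2% of all genes tested), whereas 0 called members did so on the SNpc side (0.803% of all genes). When the test asked for a change of more than 1.5-fold, 13 members were called higher in VTA, against 7.31% of all genes, and 0 higher in SNpc, against 0.599% (7.91% either way). The 5 libraries of a region did not overlap with the 5 of the other for 24 of the 50 members (18 higher in VTA and 6 higher in SNpc), against 14.6% and 12% of all genes, or 26.6% in either direction.

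**Figure D1:**
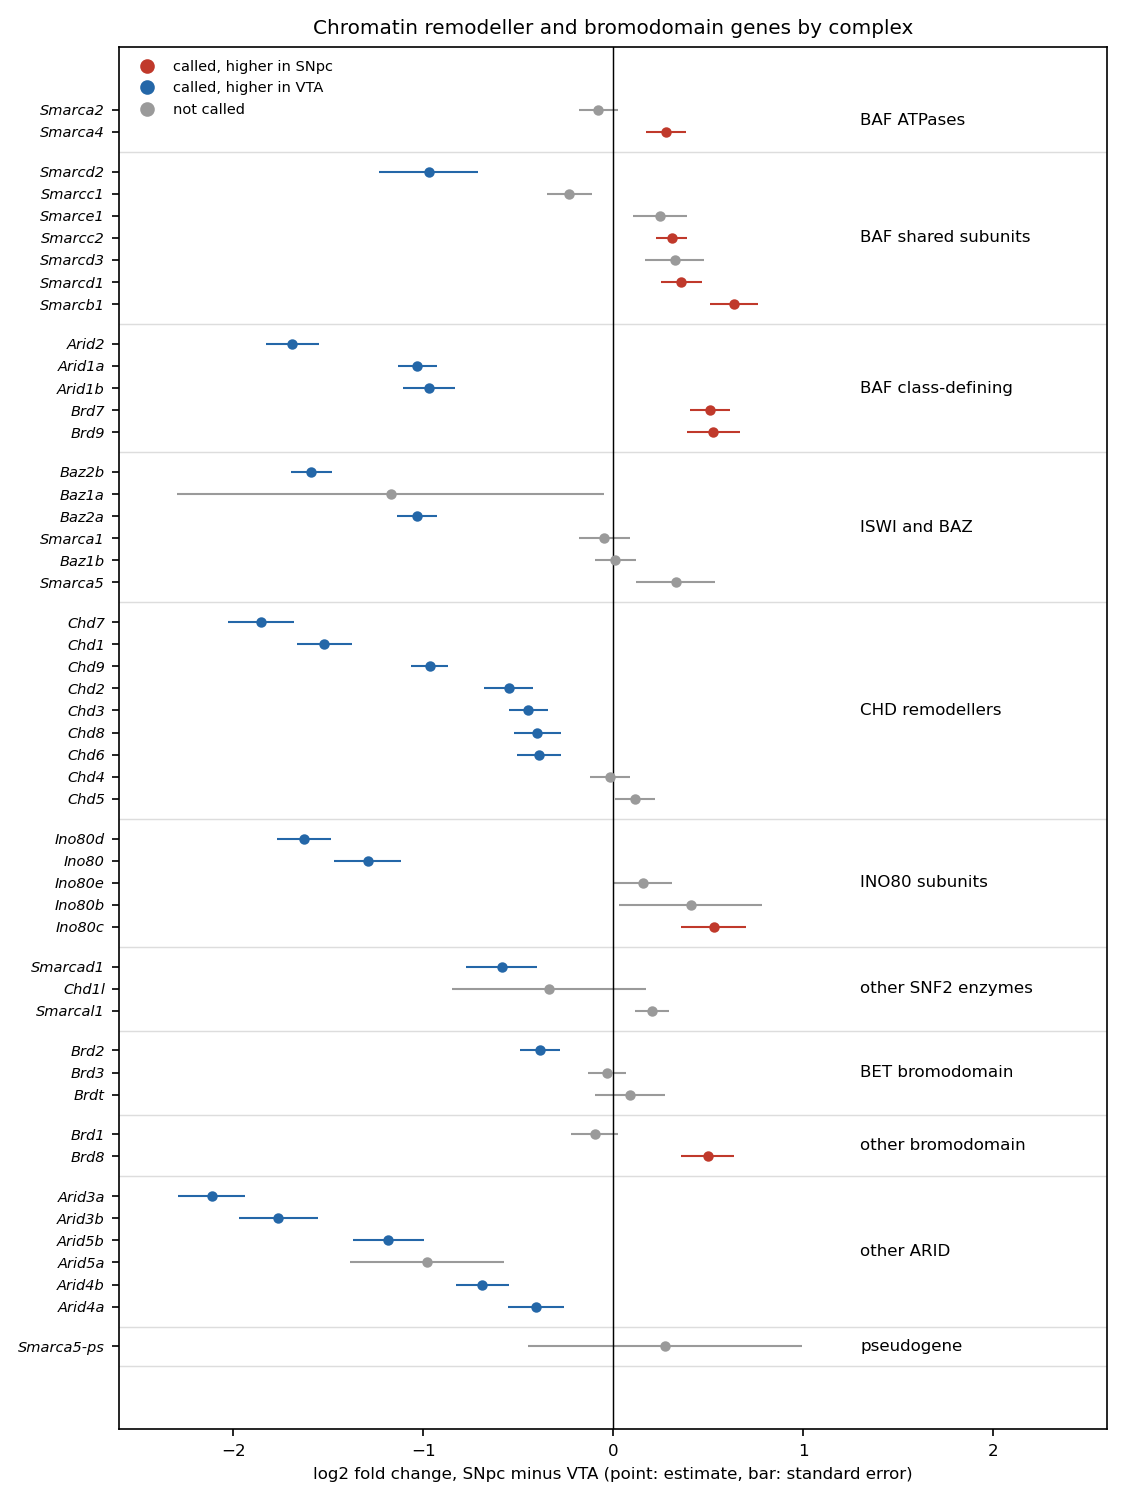
Log2 fold change (SNpc minus VTA) with its standard error for members tested, sorted by complex or family, with colour for the side on which a member was called. The called values reach from -2.11 for Arid3a to 0.64 for Smarcb1, and the CHD and other ARID groups hold no member called higher in SNpc.

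Promoter sequence was a feature that the rule did not use. RefSeq windows of the 250 bases before a gene's start (build GRCm38.p6) could be matched to 37 of the 51 members. The GC box GGGCGG, on either strand (as GGGCGG or CCGCCC), was found in 28 of the 37 windows (75.7%), against 56.6% of the windows of genes tested and 32.9% of all 27025 windows. CCAAT (or ATTGG) was found in 32.4% of the members' windows, 36.2% of those of genes tested and 34.5% of all. TATAAA (or TTTATA) was found in 3 members' windows (8.11%), against 6.85% for genes tested and 13% for all, and CACGTG in 2 (5.41%), against 8.06% and 6.05%. The median number of CpG dinucleotides per window was 20 in members, 15 in genes tested and 6 in all. The windows shown here are those of the called members with the largest change in each direction for which a window was matched and held no exon of another coding gene. The windows of Arid3b (chr9:57836780-57837029, minus strand) and Baz2b (chr2:60125741-60125990, minus strand) belong to members higher in VTA, and those of Smarcb1 (chr10:75921615-75921864, minus strand) and Brd7 (chr8:88362173-88362422, minus strand) to members higher in SNpc. Capitals mark GC boxes and TATAAA, and each sequence is read from 5′ to 3′ along the strand of its gene.
Arid3b: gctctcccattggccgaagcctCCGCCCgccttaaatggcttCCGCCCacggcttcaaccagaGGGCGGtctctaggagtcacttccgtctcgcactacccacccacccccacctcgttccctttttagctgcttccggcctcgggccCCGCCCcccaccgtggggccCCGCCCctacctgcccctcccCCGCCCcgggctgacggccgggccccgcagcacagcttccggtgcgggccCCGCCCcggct
Baz2b: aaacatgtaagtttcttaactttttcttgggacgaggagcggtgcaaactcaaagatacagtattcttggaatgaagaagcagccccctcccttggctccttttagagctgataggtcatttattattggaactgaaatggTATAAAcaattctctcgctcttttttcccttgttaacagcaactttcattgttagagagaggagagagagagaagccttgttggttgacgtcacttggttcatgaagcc
Smarcb1: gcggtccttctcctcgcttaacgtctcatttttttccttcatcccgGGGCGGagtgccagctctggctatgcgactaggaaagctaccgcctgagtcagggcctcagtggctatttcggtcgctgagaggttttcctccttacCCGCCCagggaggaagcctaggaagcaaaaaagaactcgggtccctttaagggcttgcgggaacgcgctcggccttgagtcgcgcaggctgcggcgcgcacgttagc
Brd7: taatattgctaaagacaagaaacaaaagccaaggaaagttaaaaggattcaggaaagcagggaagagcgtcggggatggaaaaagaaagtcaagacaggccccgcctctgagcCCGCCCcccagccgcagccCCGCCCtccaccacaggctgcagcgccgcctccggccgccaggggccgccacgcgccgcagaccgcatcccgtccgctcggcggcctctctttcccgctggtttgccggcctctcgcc
The Arid3b window held 7 GC boxes and 23 CpG dinucleotides, whereas that of Baz2b held 0 GC boxes, 1 TATAAA and 4 CpG dinucleotides. Smarcb1 and Brd7 had 2 GC boxes each, with 21 and 22 CpG dinucleotides. The Baz2b window lies inside the gene as annotated by GENCODE, at an internal start, and overlaps exons of noncoding transcripts of Baz2b and Gm13620.

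The ATPases of the BAF family, Smarca2 (BRM) and Smarca4 (BRG1), are alternative motors of the same complexes, and 1 of the 2 was called (38.2% of all genes tested). Smarca4 (Entrez 20586, chromosome 9, 21616169 to 21704230, plus strand) was at 185, 169.7, 156, 129.9 and 173 CPM in SNpc libraries 1, 2, 3, 4 and 6 and at 141, 151, 118, 129.6 and 131 CPM in VTA libraries 1, 2, 4, 5 and 6. The regions overlapped, since SNpc library 4 lay among the VTA libraries. Its log2 fold change was 0.28 ± 0.11 (SE, adjusted p = 0.0464, edgeR), the weakest call on the SNpc side. That call ended without any of SNpc libraries 1, 2, 3 and 6 or VTA libraries 1, 4, 5 and 6, at adjusted p-values from 0.0573 to 0.123 by edgeR. Smarca2 (Entrez 67155, chromosome 19, 26605050 to 26778322, plus strand) was at 228, 224, 237, 214 and 264 CPM in the SNpc libraries, in the same order, and 248, 291, 209.9, 268 and 215 CPM in the VTA libraries. The Smarca2 libraries of the regions were interleaved, and its log2 fold change of -0.08 ± 0.10 (SE, adjusted p = 0.577, edgeR) was not called. Per kilobase of transcript, Smarca2 was the more abundant of the 2, at 39.4 CPM per kb in SNpc and 41.6 in VTA, against 25.5 and 21 CPM per kb for Smarca4.

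Of the 7 shared BAF subunits, 3 were called higher in SNpc and 1 higher in VTA (17.8% and 20.4% of all genes tested). Smarcb1 (BAF47 or SNF5, a core subunit that contacts the nucleosome; Entrez 20587, chromosome 10, 75896769 to 75921617, minus strand) was at 59.6, 57.1, 55.1, 54.8 and 46.4 CPM in the SNpc libraries and 35, 26.5, 36.8, 36.5 and 40.8 CPM in the VTA libraries. Every SNpc library lay above every VTA library. Its difference was the largest of any called member on the SNpc side, with a log2 fold change of 0.64 ± 0.13 (SE, adjusted p = 0.000927, edgeR). Smarcd1 (BAF60A, which links the complex to transcription factors; Entrez 83797, chromosome 15, 99702129 to 99713991, plus strand) was at 83.6, 82.6, 73.7, 78.1 and 73 CPM in SNpc and 58.7, 72.7, 65.3, 52.4 and 55.9 CPM in VTA. Its regions were separated only narrowly, between SNpc library 6 and VTA library 2, and the log2 fold change was 0.36 ± 0.11 (SE, adjusted p = 0.0148, edgeR). Smarcc2 (BAF170, a scaffold subunit; Entrez 68094, chromosome 10, 128459248 to 128490482, plus strand) was at 317, 269.7, 280.5, 287 and 321 CPM in SNpc and 244, 231, 227, 234 and 255 CPM in VTA. Again the regions did not overlap, and the log2 fold change was 0.31 ± 0.08 (SE, adjusted p = 0.00769, edgeR). At 64.7 CPM per kb in SNpc and 52.3 in VTA, Smarcc2 was among the 3 most abundant members per length. Smarcd2 (BAF60B, a relative of Smarcd1 best known in blood cells) went the other way, at 6.15 ± 2.17 CPM in SNpc and 12.1 ± 2.83 CPM in VTA (SD, n = 5), with a log2 fold change of -0.97 ± 0.26 (SE, adjusted p = 0.00756, edgeR) and no overlap. Smarcc1 (-0.23), Smarce1 (0.25) and Smarcd3 (0.32) were not called by edgeR. Smarcc1 was called higher in VTA without SNpc library 6 or VTA library 1 (-0.31 in each, adjusted p = 0.0455 and 0.0473), and Smarcd3 was called higher in SNpc without SNpc library 6 (0.42, adjusted p = 0.0308), both by edgeR.

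Subunits that set the class of a BAF complex were called on both sides. Arid1a and Arid1b, the DNA-binding subunits of canonical BAF, and Arid2, that of PBAF, were all higher in VTA, whereas the bromodomain subunits Brd7 (of PBAF) and Brd9 (of noncanonical BAF) were both higher in SNpc. Arid2 (Entrez 77044, chromosome 15, 96287518 to 96404992, plus strand) was at 54.9, 67.1, 81, 64.7 and 86.4 CPM in the SNpc libraries and 186, 261, 205, 212 and 277 CPM in the VTA libraries. All 5 VTA libraries lay well above all 5 SNpc libraries, and the log2 fold change was -1.69 ± 0.14 (SE, adjusted p = 2.52e-07, edgeR). Arid1a was at 163 ± 11.6 CPM in SNpc and 333 ± 45.3 CPM in VTA (SD, n = 5), with a log2 fold change of -1.03 ± 0.10 (SE, adjusted p = 1.17e-06, edgeR), and Arid1b at 57 ± 6.76 CPM in SNpc and 112 ± 22.9 CPM in VTA (SD, n = 5), with one of -0.97 ± 0.14 (SE, adjusted p = 4.08e-05, edgeR). Neither of them overlapped between regions. Brd7 (Entrez 26992, chromosome 8, 88331039 to 88362194, minus strand) was at 50.3, 50.7, 58.2, 48 and 53.4 CPM in SNpc and 35.9, 35.2, 37.6, 39.4 and 35.2 CPM in VTA. Its libraries were tightly grouped and did not overlap, and its log2 fold change was 0.51 ± 0.11 (SE, adjusted p = 0.00123, edgeR). Brd9 (Entrez 105246, chromosome 13, 73937811 to 73960895, plus strand) was at 57, 62.9, 47.8, 49.2 and 49.4 CPM in SNpc and 33.3, 26.9, 42.6, 40.3 and 41.7 CPM in VTA. It did not overlap either, and its log2 fold change was 0.53 ± 0.14 (SE, adjusted p = 0.00691, edgeR). Pbrm1, the polybromo subunit of PBAF, which carries several bromodomains, is outside the name rule and is given here after its values were seen. It was at 114 ± 3.75 CPM in SNpc and 143 ± 20.4 CPM in VTA (SD, n = 5), with no overlap, and was called higher in VTA (log2 fold change -0.33 ± 0.10 SE, adjusted p = 0.0158, edgeR), so that the bromodomain subunits of PBAF were called on both sides. With a trend on transcript length and GC content removed, a fit described further on, Pbrm1 was at 0.004 on the log2 scale and was not called (edgeR adjusted p = 0.978).

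Shares within sets of alternative BAF subunits were computed per length and are given without a test. Smarcd2 made up 4.25% ± 1.35 of the summed CPM per kb of Smarcd1, Smarcd2 and Smarcd3 in SNpc and 9.96% ± 2.25 in VTA (SD, n = 5), and the libraries did not overlap. Arid2 made up 24.9% ± 2.79 of the sum of Arid1a, Arid1b and Arid2 in SNpc and 34.6% ± 2.14 in VTA, and Arid1a 59.9% ± 3.57 and 52.7% ± 2.22, in neither case with overlap. The level of all 3 ARID subunits was higher in VTA, by unequal amounts. The share of Smarcc2 in the sum of Smarcc1 and Smarcc2 was 75.4% ± 1.35 in SNpc and 67.9% ± 3.32 in VTA, and that of Smarca4 in the sum of Smarca2 and Smarca4 was 39.2% ± 2.82 and 33.7% ± 1.97, both with some overlap.

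Neither ISWI ATPase was called, whereas both of their BAZ2 partners were higher in VTA. Smarca1 (SNF2L; Entrez 93761, chromosome X, 47809368 to 47892974, minus strand) was at 52.1, 51.4, 34.9, 48.3 and 56.4 CPM in the SNpc libraries and 50.0, 58.2, 54, 42.5 and 46.3 CPM in the VTA libraries. Smarca5 (SNF2H; Entrez 93762, chromosome 8, 80698507 to 80739497, minus strand) was at 77.9, 73.7, 71.1, 42.3 and 90.1 CPM in SNpc and 67.1, 66.1, 54.9, 62.8 and 32 CPM in VTA. Both overlapped, with SNpc library 4 and VTA library 6 lowest for Smarca5, and neither log2 fold change was called, at -0.05 ± 0.14 (SE, adjusted p = 0.816, edgeR) for Smarca1 and 0.33 ± 0.21 (SE, adjusted p = 0.232, edgeR) for Smarca5. Without SNpc library 4, Smarca5 was called higher in SNpc (0.53, edgeR adjusted p = 0.0248). The pseudogene Smarca5-ps, whose sequence is close to that of Smarca5 and may take some of its reads, had at most 0.701 CPM and was not called (0.27). Baz2b (a bromodomain protein related to Baz2a; Entrez 407823, chromosome 2, 59899363 to 60209839, minus strand) was at 69.8, 64, 79.7, 58.2 and 70.8 CPM in SNpc and 209, 245, 179, 198 and 199 CPM in VTA. All VTA libraries lay far above all SNpc libraries, and the log2 fold change was -1.59 ± 0.11 (SE, adjusted p = 1.12e-07, edgeR). Baz2a (TIP5, the large subunit of the NoRC complex that silences ribosomal DNA) was at 86.4 ± 12 CPM in SNpc and 177 ± 10.5 CPM in VTA (SD, n = 5), with a log2 fold change of -1.03 ± 0.10 (SE, adjusted p = 1.52e-06, edgeR) and no overlap. Baz1b (the Williams syndrome transcription factor) was at 74.6 ± 5.19 CPM in SNpc and 74 ± 9.23 CPM in VTA (SD, n = 5), with 0.01 on the log2 scale, and was not called. The count of Baz1a (ACF1) was near 0, with at most 1.64 CPM, that of SNpc library 4. It was not called (-1.17), but was called higher in VTA without SNpc library 4 (-3.39, edgeR adjusted p = 0.0263).

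Of the 9 CHD remodellers, 7 were higher in VTA and 0 higher in SNpc (20.4% and 17.8% of all genes tested). A fit described further on removed a trend on transcript length and GC content. In that fit, 3 CHD genes were higher in VTA and 2 higher in SNpc, with a median of 0.01. The shares of all genes in that fit were 16.5% and 15.0%. Chd7, which is mutated in CHARGE syndrome (Entrez 320790, chromosome 4, 8690406 to 8867659, plus strand), was at 74.6, 116, 113, 65.1 and 108 CPM in the SNpc libraries and 465, 334, 279, 315 and 334 CPM in the VTA libraries. The regions did not overlap, with VTA library 1 highest, and the log2 fold change was -1.86 ± 0.17 (SE, adjusted p = 1.83e-06, edgeR). Chd1, which binds trimethylated lysine 4 of histone H3, was at 51.2 ± 12.4 CPM in SNpc and 147 ± 16 CPM in VTA (SD, n = 5), with a log2 fold change of -1.52 ± 0.14 (SE, adjusted p = 8.57e-07, edgeR) and no overlap. Chd9 (Entrez 109151, chromosome 8, 90828352 to 91054516, plus strand) was at 367, 404, 415, 365 and 455 CPM in SNpc and 739.5, 942, 712, 754 and 774 CPM in VTA. It was the most abundant CHD gene per length, at 33.4 CPM per kb in SNpc and 65.3 in VTA, did not overlap, and had a log2 fold change of -0.97 ± 0.10 (SE, adjusted p = 1.21e-06, edgeR). Smaller changes were called by edgeR for Chd2 (-0.55), Chd3 (-0.45), Chd8 (-0.40) and Chd6 (-0.39). The call of Chd8 ended without SNpc library 4 (-0.31, edgeR adjusted p = 0.0715) or VTA library 2 (-0.29, 0.0505), and that of Chd6 without SNpc library 4 (-0.28, 0.0697).

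Chd3, Chd4 and Chd5 are alternative ATPases of the NuRD complex, which pairs remodelling with histone deacetylation. Chd3 (Entrez 216848, chromosome 11, 69343273 to 69369406, minus strand) was at 137, 152, 149.6, 157 and 137 CPM in SNpc and 173, 246, 180.1, 192 and 209 CPM in VTA. Its libraries did not overlap, and its log2 fold change was -0.45 ± 0.10 (SE, adjusted p = 0.00255, edgeR). Chd4 (Entrez 107932, chromosome 6, 125095981 to 125130591, plus strand) was at 95.7, 96.8, 80.3, 76.8 and 89.3 CPM in SNpc and 98.3, 98.4, 84.7, 76.2 and 87 CPM in VTA. Chd5, which is known for its expression in neurons (Entrez 269610, chromosome 4, 152338651 to 152390194, plus strand), was at 256, 238, 236, 186 and 272 CPM in SNpc and 235, 235, 191, 233 and 206 CPM in VTA. The last 2 were interleaved, and their log2 fold changes of -0.02 ± 0.11 (SE, adjusted p = 0.908, edgeR) and 0.11 ± 0.11 (SE, adjusted p = 0.43, edgeR) were not called. Chd5 was called higher in SNpc without SNpc library 4 (0.25, edgeR adjusted p = 0.0398). Per length, Chd5 held 42.8% ± 3.72 of the summed CPM per kb of the 3 in SNpc and 36.3% ± 2.78 in VTA, Chd3 34.8% ± 4.04 and 42.9% ± 3.37, and Chd4 22.4% ± 1.33 and 20.8% ± 1.90 (SD, n = 5), each with overlap between regions.

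Among the 5 INO80 genes, the ATPase and Ino80d were higher in VTA and Ino80c was higher in SNpc (20.4% and 17.8% of all genes tested). Ino80 (Entrez 68142, chromosome 2, 119373042 to 119477687, minus strand) was at 19.9, 20.2, 34.1, 17.5 and 21.3 CPM in SNpc and 49.1, 73.1, 53.9, 49.7 and 50.9 CPM in VTA. SNpc library 3 and VTA library 2 were the highest of their regions, the regions did not overlap, and the log2 fold change was -1.29 ± 0.18 (SE, adjusted p = 3.04e-05, edgeR). Ino80d (Entrez 227195, chromosome 1, 62958418 to 63114667, minus strand) was at 79, 105, 125, 93.1 and 141 CPM in SNpc and 312, 405, 291, 333 and 339.6 CPM in VTA. The regions were again far apart with no overlap, and the log2 fold change was -1.63 ± 0.14 (SE, adjusted p = 3.92e-07, edgeR). Ino80c (a small subunit; Entrez 225280, chromosome 18, 24104757 to 24121953, minus strand) was at 23.5, 35.4, 22.3, 22.3 and 26.8 CPM in SNpc and 14.3, 19.7, 18.9, 15.7 and 21.6 CPM in VTA. Its regions were separated by a narrow gap, and SNpc library 2 was highest. Its log2 fold change was 0.53 ± 0.17 (SE, adjusted p = 0.0203, edgeR), a call that ended without SNpc library 2 (0.40, adjusted p = 0.0704), VTA library 1 (0.46, 0.0522) or VTA library 5 (0.48, 0.0508). Ino80e (0.15) and Ino80b (0.41), at 3.82 ± 1.75 CPM in SNpc and 2.88 ± 0.586 CPM in VTA (SD, n = 5) for the latter, were not called.

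Smarcal1, an annealing helicase that protects stalled replication forks (Entrez 54380, chromosome 1, 72583251 to 72633134, plus strand), was the most abundant member per length, at 79 CPM per kb in SNpc and 68.6 in VTA. In CPM it was at 253, 224, 239, 213 and 281 in the SNpc libraries and 213, 224, 203, 211 and 198 in the VTA libraries. The regions overlapped, and the log2 fold change of 0.20 ± 0.09 (SE, adjusted p = 0.0866, edgeR) was not called, but was called without SNpc library 4 (0.31, edgeR adjusted p = 0.0104). Smarcad1, an SNF2 enzyme linked to heterochromatin and DNA repair, was at 14.3 ± 3.17 CPM in SNpc and 21.5 ± 4.35 CPM in VTA (SD, n = 5), with a log2 fold change of -0.59 ± 0.19 (SE, adjusted p = 0.02, edgeR). The call of Smarcad1 ended without SNpc library 1, 2 or 4 or VTA library 1, at -0.48 to -0.52 and edgeR adjusted p-values of 0.0502 to 0.0636. Chd1l (ALC1, a remodeller activated by poly-ADP-ribose) was at 2.62 ± 1.92 CPM in SNpc and 3.31 ± 1.64 CPM in VTA (SD, n = 5) and was not called (-0.34).

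The BET proteins carry paired bromodomains that bind acetylated histones at active genes. Of these, Brd2 was called higher in VTA by a small amount, at 143 ± 20.7 CPM in SNpc and 187 ± 15.4 CPM in VTA (SD, n = 5), a log2 fold change of -0.39 ± 0.11 (SE, adjusted p = 0.00828, edgeR), with overlap. Brd3 was at 77 ± 8.88 CPM in SNpc and 78.9 ± 1.69 CPM in VTA (SD, n = 5), and Brdt, known for its role in the testis, was detected at 17.5 ± 2.91 CPM in SNpc and 16.5 ± 3.63 CPM in VTA (SD, n = 5). Neither was called (-0.03 and 0.09). Brd8 is a bromodomain subunit of the TIP60 acetyltransferase complex (Entrez 78656, chromosome 18, 34598615 to 34624601, minus strand). It was at 45.4, 49.1, 54.7, 54.3 and 65.4 CPM in SNpc and 37.6, 46.1, 41.2, 28.5 and 37.1 CPM in VTA. The regions overlapped only through SNpc library 1 and VTA library 2, and the log2 fold change was 0.50 ± 0.14 (SE, adjusted p = 0.00937, edgeR). Brd1, a scaffold of other acetyltransferase complexes, was not called (-0.10).

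Of the 6 ARID genes tested outside BAF, 5 were higher in VTA (20.4% of all genes tested), among them the member with the largest difference. Arid3a, a DNA-binding factor best known from B cells as Bright (Entrez 13496, chromosome 10, 79927043 to 79955018, plus strand), was at 11.4, 12, 19.6, 10.7 and 16.1 CPM in SNpc and 52.3, 68.5, 50.0, 66 and 65.6 CPM in VTA. Even the lowest VTA library lay far above the highest SNpc library, and the log2 fold change was -2.11 ± 0.17 (SE, adjusted p = 2.80e-07, edgeR). Its paralog Arid3b (Entrez 56380, chromosome 9, 57790353 to 57836793, minus strand) was at 15.6, 23.7, 29.8, 14.1 and 34.7 CPM in SNpc and 79.7, 81.1, 86.2, 81.7 and 71.7 CPM in VTA. The SNpc libraries were widely spread, from library 4 to library 6, yet all lay below the VTA libraries, and the log2 fold change was -1.76 ± 0.21 (SE, adjusted p = 1.30e-05, edgeR). Arid5b, a partner of the histone demethylase Phf2, was at 45.3 ± 13.9 CPM in SNpc and 103 ± 13.9 CPM in VTA (SD, n = 5), with a log2 fold change of -1.19 ± 0.19 (SE, adjusted p = 0.000159, edgeR) and no overlap. Arid4a and Arid4b, related subunits of Sin3 deacetylase complexes, were called higher in VTA at -0.41 ± 0.15 (SE, adjusted p = 0.036, edgeR) and -0.69 ± 0.14 (SE, adjusted p = 0.000978, edgeR). The call of Arid4a ended without SNpc library 1, 2 or 4 or VTA library 1, 2 or 5, at -0.28 to -0.39 and edgeR adjusted p-values of 0.0653 to 0.14. Arid5a was low, at 2.28 ± 1.40 CPM in SNpc and 4.51 ± 1.21 CPM in VTA (SD, n = 5), and not called (log2 fold change -0.98 ± 0.40 SE, adjusted p = 0.0656, edgeR), but it was called higher in VTA without SNpc library 2 (-1.43, adjusted p = 0.00831) or VTA library 4 (-1.13, 0.0425).

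**Figure D2:**
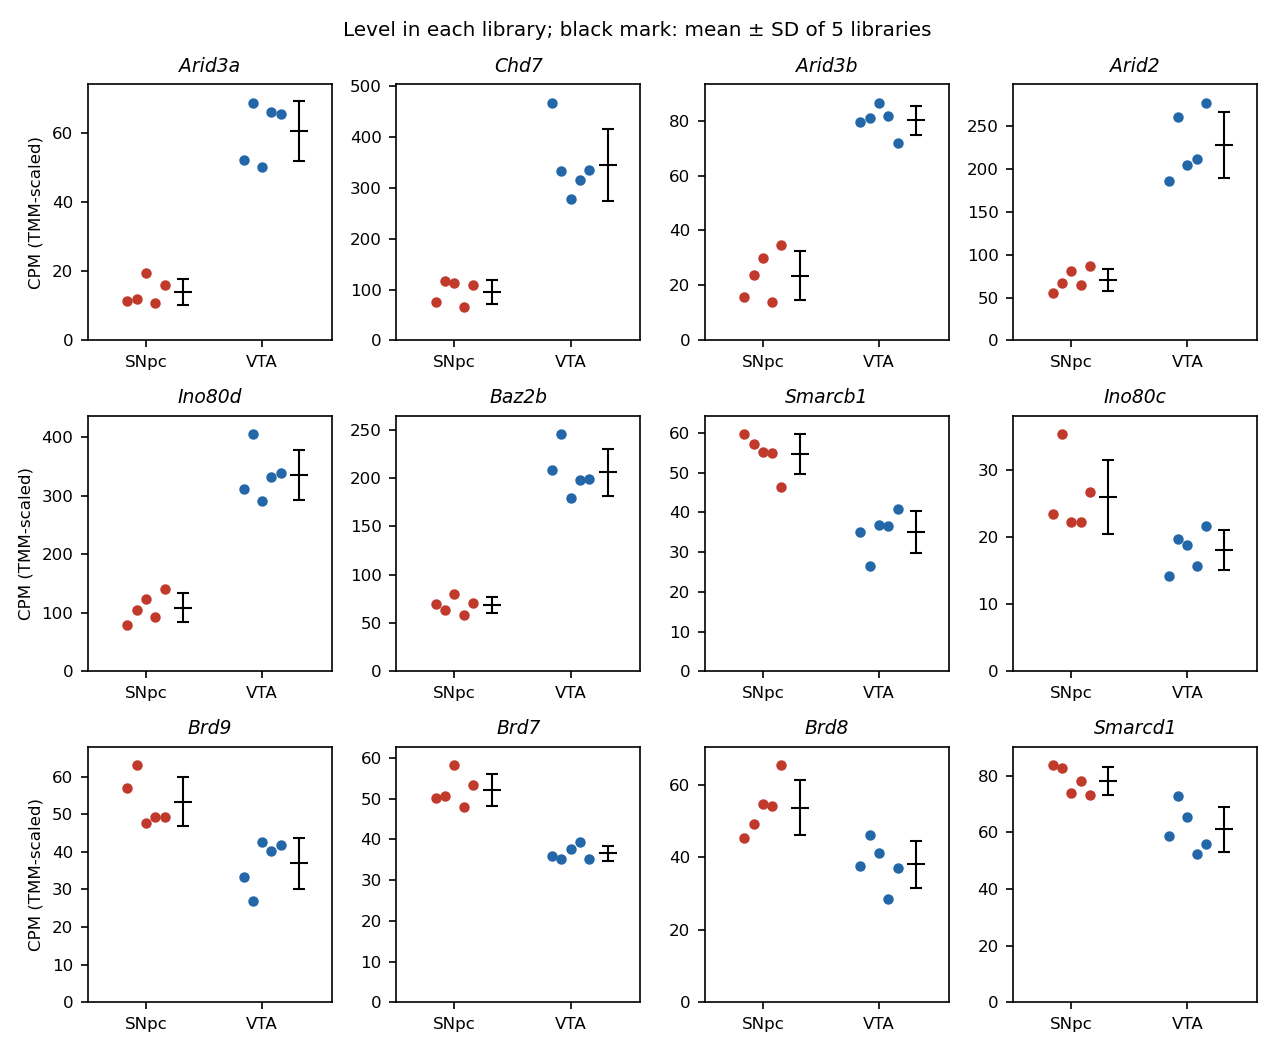
CPM in each of the 5 SNpc and 5 VTA libraries, with their mean and SD beside the points, for the 6 called members with the largest log2 fold change in each direction and mean log2 CPM at or above 3. Each vertical axis starts at 0, and the libraries of the regions overlap only for Brd8.

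Most members have long transcripts, and the difference between regions moved with transcript length over the whole table. Their median transcript length, from the longest basic GENCODE transcript, was 5773 bases, against 3175.5 bases for the 14798 genes tested with a length. Across genes, the Spearman correlation of length with the log2 fold change was -0.38 for all genes tested and -0.61 for the 49 members with a length. These are descriptions, since genes of 1 library share its RNA quality and its amplification. The 8 members called higher in SNpc had a median length of 3466 bases (1660 to 6376), whereas the 23 called higher in VTA had one of 7895 bases (2747 to 13675). In the fifth of the genes with the longest transcripts, from 5183 bases up, 48.4% were called higher in VTA and 7.30% higher in SNpc, with a median log2 fold change of -0.48. That class held 28 of the members, of which 18 were called higher in VTA and 1 higher in SNpc, with a median of -0.83. The part of length, and of whatever moves with it, in these values was not tested beyond the fits given next.

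**Figure D3:**
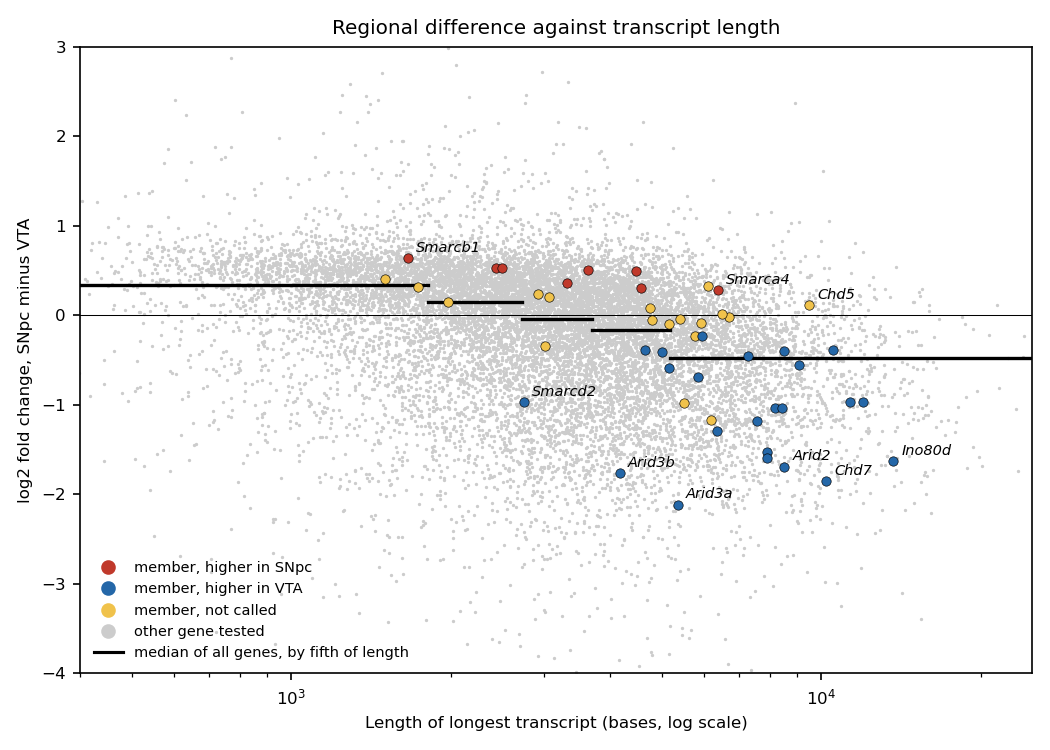
Log2 fold change (SNpc minus VTA) against transcript length on a log axis for all genes tested and for the members. The trend of all genes falls with length, and the members lie mostly toward its long end, with a Spearman correlation of -0.61 over 49 members.

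With a smooth trend on transcript length and GC content removed from each library, 12 members were called higher in SNpc and 16 higher in VTA by edgeR, against 15.0% and 16.5% of the genes that could enter that fit (31.4% in either direction). The counts were the same when library scale was fitted again after the correction, where 15.0% and 16.9% of genes were called, 31.9% in all. With the scale kept as it was, the median of the members was 0.05. The share of the members' calls that lay on the SNpc side went from 25.8% to 42.9%, and that of all genes' calls from 46.6% to 47.6%. All 16 calls on the VTA side were also made without the correction. They were Arid1a, Arid1b, Arid2, Arid3a, Arid3b, Arid4b, Arid5b, Baz2a, Baz2b, Chd1, Chd7, Chd9, Ino80, Ino80d, Smarcad1 and Smarcd2. Their values were smaller for all but Smarcd2, for example -1.82 for Arid3a and -1.29 for Chd7 on the log2 scale. On the SNpc side, 7 of the 8 calls were kept (Brd7, Brd8, Brd9, Smarca4, Smarcb1, Smarcc2 and Smarcd1), and Smarca4 had a larger value, 0.68. Baz1b (0.39), Chd4 (0.39), Chd5 (0.69), Smarca2 (0.26) and Smarca5 (0.55) were called higher in SNpc here and not without the correction. Among the calls that ended were those of Ino80c, Arid4a, Brd2, Chd2, Chd3, Chd6 and Chd8, of which Chd3, Chd6 and Chd8 changed sign, with values between 0.01 and 0.14. Of the 49 members, 40 had a higher value (further to the SNpc side) after the removal than before.

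**Figure D4:**
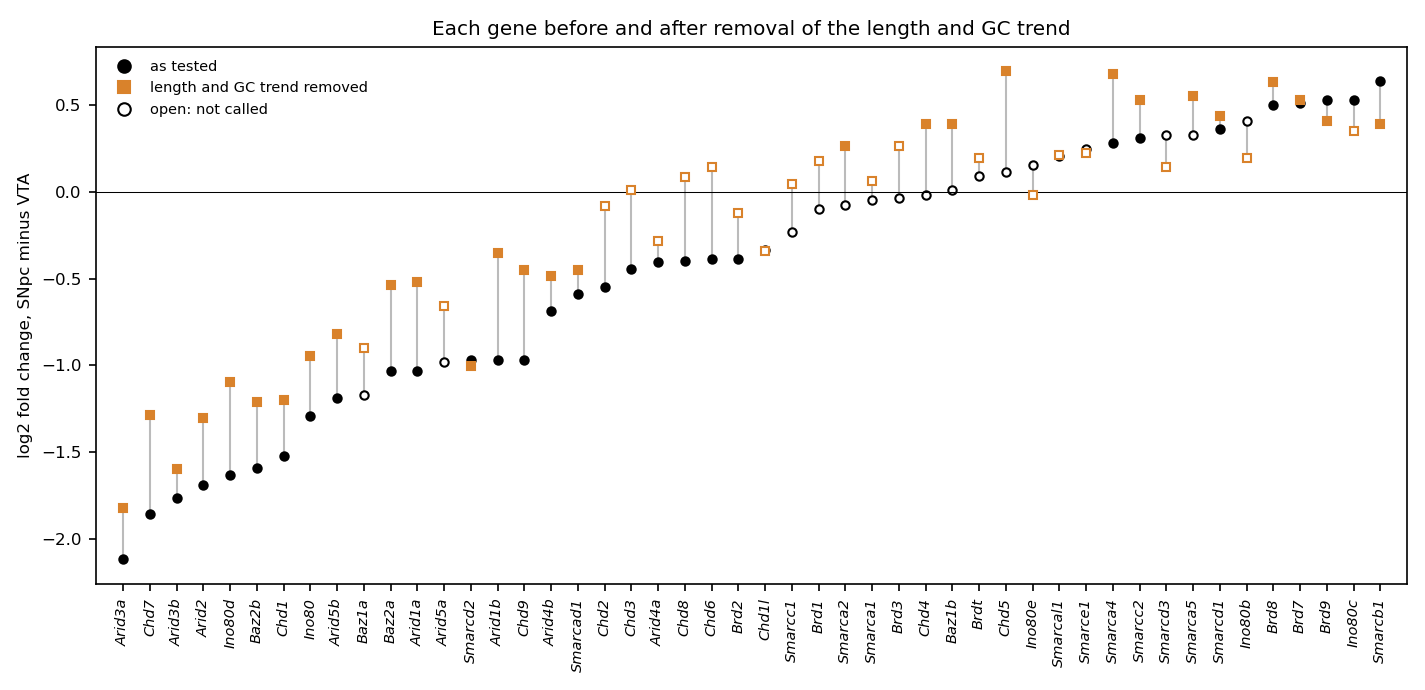
Log2 fold change (SNpc minus VTA, vertical axis) of members with a known length, sorted by the value as tested, before (circles) and after (squares) removal of the trend on transcript length and GC content, joined by a line, where open marks are not called. Most squares lie above their circles, and the 16 members called higher in VTA after the removal lie below 0 in both.

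With the mean log2 CPM of 34 glial and vascular markers as a covariate, 17 members were called higher in VTA (13.1% of all genes) and 3 higher in SNpc (7.87% of all genes) by edgeR. The 3 were Brd7, Brd8 and Smarcb1, and the share of calls on the SNpc side was 15.0% for members and 37.5% for all genes. Values of the members that differed most were as large or larger, for example -2.34 for Arid3a, -2.10 for Arid3b and -1.95 for Chd7 on the log2 scale. Among the calls that ended were those of Brd9 (0.40), Ino80c (0.35), Smarca4 (0.12), Smarcc2 (0.27), Smarcd1 (0.38), Arid4a (-0.54), Chd2 (-0.38), Chd6 (-0.43), Chd8 (-0.44) and Smarcad1 (-0.48). Of these values, those of Smarcd1, Arid4a, Chd6 and Chd8 were larger in size than without the covariate, and the others smaller. Over all genes, 21.0% were called with the covariate and 38.2% without it. Without SNpc library 4, 11 members were called higher in SNpc and 19 higher in VTA, a share of 36.7% on the SNpc side, with a median of -0.19. Over all genes in that fit, 3317 were called higher in SNpc and 3193 higher in VTA, a share of 51.0% against 46.6% with all libraries. Without both SNpc library 4 and VTA library 2, the libraries least like the others of their regions, the counts were 11 and 18 and the median -0.17. Over all 15615 genes in that fit, 2796 were called higher in SNpc and 2841 higher in VTA, with a median of -0.005. The share on the SNpc side was 37.9% for members and 49.6% for all genes. Calls that held when each library was left out in turn numbered 6 of 8 on the SNpc side and 18 of 23 on the VTA side. Of these, 3 (Brd7, Brd8 and Smarcb1) and 15 (Arid1a, Arid1b, Arid2, Arid3a, Arid3b, Arid4b, Arid5b, Baz2a, Baz2b, Chd1, Chd7, Chd9, Ino80, Ino80d and Smarcd2) also held with the length and GC trend removed and with the marker covariate. The shares of all genes' calls that held in these ways were not computed. Whether the members' calls held more or less often than those of other genes is therefore not known.

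The other subunits of these complexes and the other bromodomain genes were read from 6 lists of 92 genes, of which 90 are in the table and 88 were tested. Of these, 36 were higher in VTA and 13 higher in SNpc by edgeR (20.4% and 17.8% of all genes tested), with a median log2 fold change of -0.30. The libraries of the regions did not overlap for 36 of the 88 (26.6% of all genes), 28 higher in VTA and 8 higher in SNpc. The SNpc count fell to 6 without SNpc library 3 and to 8 without VTA library 1 or without VTA library 2. For all genes it was 2504, 2445 and 2284 in those fits, against 2793 with all libraries. The partners did not differ from other genes in having a length trend. Their fold changes also fell with transcript length, with a Spearman correlation of -0.67 over the 88 genes, and with the length and GC trend removed 23 were called higher in VTA and 7 higher in SNpc (16.5% and 15.0% of all genes in that fit), with a median of -0.11.

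Of 16 BAF partners tested, 7 were higher in VTA and 2 higher in SNpc (20.4% and 17.8% of all genes tested). Bicra and Bicral, alternative subunits of noncanonical BAF (listed as Gltscr1 and BC032203), were at 24.4 ± 4.89 CPM in SNpc and 61.2 ± 3.38 CPM in VTA (SD, n = 5) for Bicra and 106 ± 11.6 CPM in SNpc and 246 ± 39 CPM in VTA (SD, n = 5) for Bicral. Neither overlapped, and their log2 fold changes were -1.33 ± 0.14 (SE, adjusted p = 2.16e-06, edgeR) and -1.22 ± 0.12 (SE, adjusted p = 8.71e-07, edgeR). They stood on the VTA side while Brd9, of the same complex, stood on the SNpc side. Bcl7b was at 43.5 ± 4.88 CPM in SNpc and 30.9 ± 6.88 CPM in VTA (SD, n = 5) and higher in SNpc (log2 fold change 0.50 ± 0.15 SE, adjusted p = 0.0175, edgeR). The neuronal actin-like subunit Actl6b (BAF53B) was at 16.8 ± 2.92 CPM in SNpc and 12.1 ± 0.870 CPM in VTA (SD, n = 5) and higher in SNpc (log2 fold change 0.47 ± 0.17 SE, adjusted p = 0.0355, edgeR), and its progenitor counterpart Actl6a, at 5.44 ± 1.04 CPM in SNpc and 7.73 ± 1.95 CPM in VTA (SD, n = 5), was not called (log2 fold change -0.51 ± 0.25 SE, adjusted p = 0.118, edgeR). Actl6b held 79.2% ± 4.93 of the summed CPM per kb of the pair in SNpc and 66.7% ± 5.17 in VTA, with overlap. Ss18l1 (CREST, the neuronal form) was at 124 ± 5.13 CPM in SNpc and 136 ± 11.7 CPM in VTA (SD, n = 5) and not called (log2 fold change -0.13 ± 0.09 SE, adjusted p = 0.272, edgeR), whereas Ss18, the progenitor form, was called higher in VTA at 6.77 ± 2.47 CPM in SNpc and 14.2 ± 2.08 CPM in VTA (SD, n = 5, log2 fold change -1.07 ± 0.24 SE, adjusted p = 0.00242, edgeR). Ss18l1 held 94.6% ± 1.93 of that pair in SNpc and 90.1% ± 1.12 in VTA, without overlap. Of the PHD-finger subunits, neuronal Dpf1 (0.07) and progenitor Phf10 (-0.04) were not called, and neuronal Dpf3 was higher in VTA (log2 fold change -0.73 ± 0.28 SE, adjusted p = 0.0451, edgeR). The call of Dpf3 ended without any of SNpc libraries 1, 2, 3 and 4 or VTA libraries 1, 2, 4 and 6, and that of Actl6b without any of SNpc libraries 2, 3 and 6 or VTA libraries 1, 4, 5 and 6, at edgeR adjusted p-values of up to 0.0963 and 0.0915.

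The ISWI partners gave 4 of 8 higher in VTA and 2 higher in SNpc (20.4% and 17.8% of all genes tested). With the length and GC trend removed, 2 were higher in VTA and 1 higher in SNpc (16.5% and 15.0% of all genes in that fit). Cecr2, a bromodomain partner of the ISWI ATPases, was at 7.83, 9.03, 12.4, 9.89 and 14.3 CPM in the SNpc libraries and 49.1, 53.2, 41, 41.5 and 47.6 CPM in the VTA libraries. It did not overlap and had a log2 fold change of -2.12 ± 0.17 (SE, adjusted p = 2.21e-07, edgeR), close to that of Arid3a. Bptf, the large subunit of NURF, was at 141 ± 11.6 CPM in SNpc and 244 ± 37 CPM in VTA (SD, n = 5, log2 fold change -0.79 ± 0.11 SE, adjusted p = 2.45e-05, edgeR). The histone-binding Rbbp4 (log2 fold change 0.32 ± 0.11 SE, adjusted p = 0.0296, edgeR) and the small subunit Chrac1 (log2 fold change 0.61 ± 0.22 SE, adjusted p = 0.0345, edgeR) were higher in SNpc. Their calls ended without SNpc library 3 or VTA library 1 or 2 for Rbbp4 (edgeR adjusted p up to 0.0739), and without SNpc library 2 or 3 or VTA library 1, 4 or 6 for Chrac1 (up to 0.0901). Of the 11 genes listed as NuRD partners, 1 was called (38.2% of all genes tested), namely Adnp, which binds Chd4 but is not a NuRD subunit. Adnp was higher in VTA (log2 fold change -0.33 ± 0.10 SE, adjusted p = 0.0123, edgeR), a call that ended without SNpc library 4 (adjusted p = 0.0675). Rbbp4 and Rbbp7 were counted with ISWI but are NuRD subunits as well. Of these, Rbbp4 was called, as given above, and Rbbp7 was not (0.19). Among 21 tested partners of INO80, SRCAP and TIP60, 8 were higher in SNpc and 6 higher in VTA (17.8% and 20.4% of all genes tested). The SNpc count was 5 without SNpc library 1 (2331 over all genes) and 4 without SNpc library 3 (2504) or without VTA library 2 (2284). It was 2 with the marker covariate (7.87% of all genes). With the length and GC trend removed, it was 1 and the VTA count was 4 (15.0% and 16.5% of all genes in that fit). Morf4l1 (MRG15, a reader of methylated histone H3) was at 407 ± 23.8 CPM in SNpc and 301 ± 27.2 CPM in VTA (SD, n = 5, log2 fold change 0.44 ± 0.09 SE, adjusted p = 0.000843, edgeR), and the AAA+ ATPase Ruvbl1 at 34 ± 2.94 CPM in SNpc and 22.4 ± 3.27 CPM in VTA (SD, n = 5, log2 fold change 0.60 ± 0.13 SE, adjusted p = 0.00213, edgeR). Epc1, a scaffold of TIP60, was higher in VTA at 65.7 ± 13.8 CPM in SNpc and 188 ± 31.1 CPM in VTA (SD, n = 5, log2 fold change -1.52 ± 0.15 SE, adjusted p = 1.02e-06, edgeR), as was the ATPase Ep400 (log2 fold change -1.15 ± 0.14 SE, adjusted p = 1.25e-05, edgeR).

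The list of other SNF2 helicases gave 5 of 11 higher in VTA and 0 higher in SNpc (20.4% and 17.8% of all genes tested). It was led by Rad54l2, an androgen receptor cofactor (log2 fold change -1.05 ± 0.12 SE, adjusted p = 7.82e-06, edgeR), and Btaf1, which removes TATA-binding protein from DNA (log2 fold change -1.36 ± 0.18 SE, adjusted p = 2.80e-05, edgeR). The 5 include Helz, an RNA helicase outside the SNF2 family (log2 fold change -0.68 ± 0.11 SE, adjusted p = 0.00014, edgeR). With the length and GC trend removed, only Rad54l2 (-0.51, edgeR adjusted p = 0.00151) and Btaf1 (-1.07, 0.000118) of that list were called. Both were higher in VTA (16.5% of all genes in that fit). Of 21 other bromodomain genes tested, 13 were higher in VTA and 1 higher in SNpc (20.4% and 17.8% of all genes tested). The paired histone acetyltransferases Ep300 and Crebbp were at 117 ± 9.71 CPM in SNpc and 351 ± 55.5 CPM in VTA (SD, n = 5) for Ep300 and 145 ± 9.28 CPM in SNpc and 326 ± 49.4 CPM in VTA (SD, n = 5) for Crebbp. Neither overlapped, and their log2 fold changes were -1.59 ± 0.11 (SE, adjusted p = 1.12e-07, edgeR) and -1.17 ± 0.10 (SE, adjusted p = 4.49e-07, edgeR). Trim28 (KAP1, a corepressor of zinc finger proteins) was the gene higher in SNpc, at 52.8 ± 3.18 CPM in SNpc and 40.7 ± 2.38 CPM in VTA (SD, n = 5, log2 fold change 0.38 ± 0.10 SE, adjusted p = 0.00869, edgeR). Sp100 and Sp110 did not pass the filter. With the length and GC trend removed, that list had 7 genes higher in VTA and 3 higher in SNpc (16.5% and 15.0% of all genes in that fit).

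Of the partners named here, 7 lost their call by edgeR with the length and GC trend removed, beside Pbrm1 and Helz (-0.10, adjusted p = 0.434). They were Bptf (-0.17, adjusted p = 0.121), Adnp (-0.13, adjusted p = 0.268), Dpf3 (-0.71, adjusted p = 0.0584), Bcl7b (0.29, adjusted p = 0.12), Actl6b (0.22, adjusted p = 0.356), Chrac1 (0.17, adjusted p = 0.599) and Morf4l1 (0.11, adjusted p = 0.298). Actl6a (-0.73, adjusted p = 0.0305) and Phf10 (-0.35, adjusted p = 0.0233) were called higher in VTA in that fit. With the marker covariate, the calls of Actl6b, Bcl7b, Chrac1, Dpf3, Pbrm1, Rbbp4, Ruvbl1, Ss18 and Trim28 ended. Bicra, Bicral, Cecr2, Epc1, Ep400, Rad54l2, Btaf1, Ep300 and Crebbp were called higher in VTA in both of these fits.

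**Figure D5:**
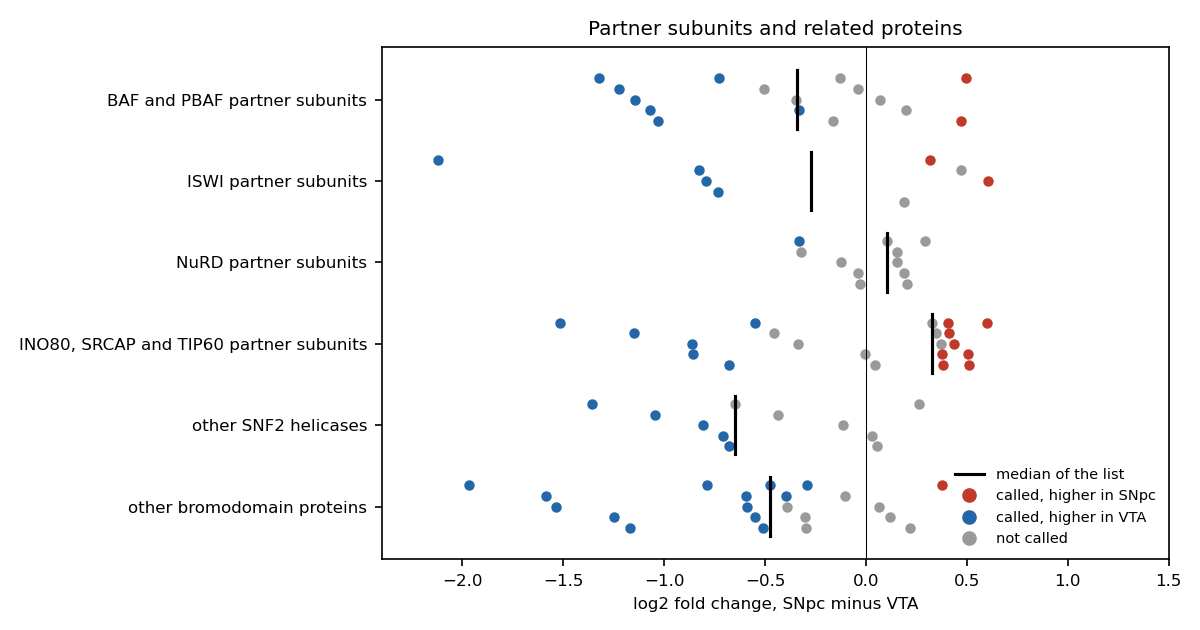
Log2 fold change (SNpc minus VTA) for the genes tested of the 6 partner lists, with a black line at each list's median and colour for the side on which a gene was called. The values called reach from -2.12 for Cecr2 to 0.61 for Chrac1. The list of other SNF2 helicases, which includes Helz, holds 0 genes called higher in SNpc.

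Some counts are uncertain because exons overlap those of another gene. Where that gene lies on the opposite strand, the library kit, which does not mark the strand, cannot separate their reads. In GENCODE, Ino80e shares 951 exonic bases with Doc2a and Smarcd3 shares 642 with Chpf2, both on the opposite strand. Of the members with the largest changes, Arid3b shares 360 bases with Gm17231, Ino80d 217 with Ino80dos, Baz2b 125 with Gm13620 and Arid2 92 with Gm25397. Smarcd1 shares 287 bases with Gm17349 and 183 with Gm34939. Chd2 shares 634 bases with 1810026B05Rik, Chd8 595 with Gm26590, Baz1a 346 with Gm20403, Smarca5 281 with Gm45872, Chd9 109 with Gm45641 and Chd5 101 with Gm13645. The overlaps of Arid2, Chd2, Baz1a and Smarca5 are on the same strand, and the others named are on the opposite strand.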

How the data were processed

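RNA was measured in libraries of dopaminergic neurons from 2 regions, and the authors deposited whole-number counts of reads per gene for 23079 genes in 12 columns, with no normalization. Per the labels' protocols, cDNA was amplified from a small RNA input (NuGEN Ovation V2), sheared, made into TruSeq libraries, which do not mark the strand, and sequenced on an Illumina HiSeq instrument. Per the submitters' processing notes, the aligner was TopHat2 2.0.8 and the build mm10. How reads were assigned to genes, with which annotation and strand setting, was not given in the sources used here. No column lacked a sample (0), and 0 lines named no gene. Columns with identical counts were merged, while all other pairs from the same region were distinct (chi-square per gene 43.1 to 148), which left 10 libraries.

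The test was that of edgeR 4.0.16 under R 4.3.3 (filterByExpr by region, TMM scaling, robust quasi-likelihood fit, no covariate), with Benjamini-Hochberg adjustment over all 15685 genes tested. The common biological coefficient of variation was 39.6%. CPM values are TMM-scaled, and CPM per kb divides them by the longest basic transcript of GENCODE M21 (same build), matched by Entrez identifier. Alternatives were library totals, DESeq2 1.42.0, no filter, all 12 columns, the replicate number as a block, each library left out, a marker covariate, removal of a trend on length and GC content, a minimum change of 1.5-fold, and only members whose mean log2 CPM was at least 3. The fit with the block used only libraries whose replicate number occurs in both regions. Genes given in every library are the 6 called members with the largest change in each direction, the 3 most abundant per length and 8 ATPases. In each partner list, the 2 called genes with the smallest p in each direction are named, with the paired neuronal and progenitor BAF subunits. The members and lists were chosen with earlier results of these data known. Srcap and Mrgbp were not found under these symbols, and the omission of SNpc library 4 with VTA library 2 was chosen after seeing the data. For 1 member, which the counts include, values are not reported here. Each SE is the absolute log2 fold change divided by the square root of edgeR's F statistic, in which dispersions are moderated across genes. Intervals and errors cover no source of spread beyond that between libraries.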

Additional observations from a re-analysis of the deposited data

Results flagged for a closer look

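Of 100 groups of 5 libraries (50 members in 2 regions), 9 had a library whose CPM lay far from the other 4 by Dixon's test, where chance gives about 1 in 20. VTA library 2 was the high one for Baz2a (195 CPM, the others 168 to 176), Chd9 (942 CPM, the others 712 to 774) and Ino80 (73.1 CPM, the others 49.1 to 53.9). VTA library 1 was low for Arid5b (78.3 CPM, the others 107 to 111). Ino80b, a low gene, was highest in VTA library 5 (3.91 CPM, the others 2.47 to 2.79). In SNpc, library 2 was high for Arid5a (4.76 CPM, the others 1.39 to 1.83), library 3 for Ino80 (34.1 CPM, the others 17.5 to 21.3) and library 6 for Brd1 (61.8 CPM, the others 40.4 to 46.0). SNpc library 4 was high for Baz1a (1.64 CPM, the others 0 to 0.254). The calls of Baz2a, Chd9, Ino80 and Arid5b held when each library was left out in turn.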

How the results depend on the processing

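The 23 calls on the VTA side and 8 on the SNpc side ran from 19 to 24 and from 6 to 11 when each library was left out in turn, and the median from -0.33 to -0.19. Of all genes in those fits (15803 to 15973 tested), 2790 to 3193 were higher in VTA and 2284 to 3317 higher in SNpc. The median of all genes ran from -0.049 to -0.007. Library totals, DESeq2, no filter and all 12 columns gave 22 to 25 and 7 to 9 members. For all genes (15685 to 20043 tested) they gave 3304 to 3794 and 2395 to 3453. The labels do not say whether libraries with the same replicate number are paired. The deviations of same-numbered libraries had correlations of -0.0723 to 0.0443 over 4 numbers, which cannot settle whether they share a source. The fit with the replicate block held only libraries of the 4 numbers found in both regions, and so fewer libraries than the fit without it. With the replicate block the members called higher in SNpc were 3, the partners 2 and all genes 1789, against 8, 13 and 2793. Calls that ended with the block included those of Brd8 (0.39, adjusted p = 0.0942), Brd2, Smarca4, Smarcc2, Smarcd1, Ino80c, Smarcad1, Arid4a and Chd2. The part of the left-out libraries in these changes was not tested. The glial covariate gave 3 members, 2 partners and 1234 genes on the SNpc side and 2054 genes on the VTA side, against 3203. A minimum change of 1.5-fold left 0 members, 0 partners and 94 genes higher in SNpc, and 13 members, 15 partners and 1146 genes higher in VTA. With the length and GC trend removed, by keeping or by refitting the library scale, the members' median was 0.047 or 0.041, and the partners numbered 7 higher in SNpc and 23 in VTA in either fit. Members called with or without the correction whose sign changed there included Chd4 (0.39 and 0.38), Chd3 (0.011 and 0.0026), Smarca2 (0.26 and 0.25), Chd8 (0.083 and 0.074) and Chd6 (0.14 and 0.13), and those called in neither were Smarca1, Smarcc1, Brd1, Brd3 and Ino80e, with sizes of at most 0.26. These fits held only genes with a known length, and the cause of the changes was not tested. The members whose mean log2 CPM was at least 3 had a median of -0.23. The partners called higher in SNpc ran from 6 to 14 with 1 library left out. Depth limits Arid3c, Baz1a and Smarca5-ps, whose counts were near 0.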
